A study of Homo sapiens with 9 samples.

Results

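The 42 genes described here encode the factors that start and lengthen protein chains on the ribosome: 37 initiation factors and 5 elongation factors. They were taken as a named list of genes grouped by function, out of 56349 genes with a transcript in the files. Each of the 42 matched 1 gene, and all of them passed the filter on low counts, so that 42 of the 16181 genes tested are members.

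RNA was sequenced from nuclear and cytoplasmic fractions of HEK293 cells, a line from human embryonic kidney (the study's methods name a derivative of that line). Cells were transfected repeatedly over several days with a control siRNA or with siRNAs against both WTAP and KIAA1429 (Virilizer, also VIRMA), which are subunits of the complex that writes N6-methyladenosine (m6A) on mRNA. The 9 samples analysed were 1 control cytoplasmic sample (replicate 2), 3 control nuclear, 2 WTAP/KIAA1429 RNAi cytoplasmic and 3 WTAP/KIAA1429 RNAi nuclear samples. All came from 1 cell line, none was left untransfected, and nothing in the labels says whether replicates were separate cultures, so a p-value covers only the spread between these samples, which may be technical.

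Initiation begins when eIF4E binds the cap of an mRNA and the scaffold eIF4G joins it to the helicase eIF4A. The multisubunit eIF3 links this complex to the small ribosomal subunit, which carries the initiator tRNA bound by eIF2 and scans for the start codon with eIF1 and eIF1A. eIF5 and eIF5B then release the factors and join the large subunit, eIF2B recharges eIF2 with GTP, and the elongation factors eEF1 and eEF2 deliver aminoacyl-tRNA and move the ribosome along. The study asked how loss of WTAP and KIAA1429 changes the export of mRNA from the nucleus, and the measure for that is the nuclear/cytoplasmic ratio.

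Several of these mRNAs belong to the class whose first transcribed bases are a C and a run of pyrimidines, a 5′ end known from mRNAs of ribosomal proteins and elongation factors. The windows below show 15 bases before and 15 bases from the annotated start (RefSeq, located on GRCh37). Capitals mark a pyrimidine run that begins with C at the first transcribed base. The first 5 mRNAs have such a start, and the last 5, shown for contrast because their ratios are described below, do not.
EEF2 (chr19:3985447-3985476, minus strand): gttgacgtcagcgttCTCTTCCgccgtcgt
EEF1A1 (chr6:74230741-74230770, minus strand): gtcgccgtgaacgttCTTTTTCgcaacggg
EEF1B2 (chr2:207024604-207024633, plus strand): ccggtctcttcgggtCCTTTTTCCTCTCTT
EIF3K (chr19:39109813-39109842, plus strand): ttccgtttccaccacCTCTTCCTgttcccg
EIF4B (chr12:53400225-53400254, plus strand): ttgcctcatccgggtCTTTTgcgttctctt
EEF1G (chr11:62341349-62341378, minus strand): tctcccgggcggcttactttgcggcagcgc
EIF4G1 (chr3:184032379-184032408, plus strand): tctgtgcggggagccggaaatggttgtgga
EIF4G2 (chr11:10830459-10830488, minus strand): cagacacgccttagcgccagcagtgagtcg
EIF4G3 (chr1:21503376-21503405, minus strand): cgaagttttccgagcagccgtcctgccgga
EIF5B (chr2:99953837-99953866, plus strand): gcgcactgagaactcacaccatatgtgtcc

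Of the 42 members, 35 have an entry in the RefSeq start table, and 10 of these 35 (28.6%) have a start that reads C followed by 4 bases that are C or T. The same letters stand at a start of 7.11% of the 11612 tested genes with an entry. The 10 are EEF1A1, EEF1B2, EEF2, EIF3D, EIF3F, EIF3K, EIF3M, EIF4A2, EIF4B and EIF2S3. A match describes the letters at an annotated start and was not measured in these cells.

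The samples held between 11627403 and 19036141 estimated counts, of which 83.07% to 88.31% fell in matched transcripts, and 3 counts corresponded to 0.19 to 0.303 CPM (counts scaled to library size). WTAP was at 23.0 to 27.6 CPM in the control nuclei and 12.2 to 15.5 CPM in the RNAi nuclei, and VIRMA was at 13.2 to 19.8 and 5.56 to 9.18 CPM. Of the 5 nuclear long non-coding RNAs used as fraction markers, 4 were testable and all 4 were higher in the nucleus, both in control and in RNAi samples. After RNAi 3 of the 4 also had a higher nuclear/cytoplasmic ratio, KCNQ1OT1 by 1.58, MALAT1 by 1.33 and NEAT1 by 0.85 on the log2 scale. TUG1, at 0.44, did not pass the test. The ratio thus also rose for RNAs used here as markers of the nucleus. The summed level of the nuclear RNAs was 357 to 536 CPM in nuclei and 59.4 to 90.3 CPM in cytoplasm. The 8 mitochondrially encoded mRNAs summed to 125361 to 243617 CPM in nuclei and 97571 to 187717 CPM in cytoplasm, ranges that overlapped. In the control 3 of the 8 were higher in the nucleus and 0 lower (28.0% and 22.7% of all genes). In RNAi cells 2 were higher and 1 lower (32.9% and 24.9% of all genes). All 6 HEK293 markers were detected. Of the 6 markers of other cell types, PTPRC and ALB were at or near 0, PECAM1 was not matched, COL3A1 and DES were at most 5.04 CPM and COL1A1 was at 56.5 to 91.5 CPM. Control nuclear replicate 2 stood a little apart from the other control nuclei, with correlations of log2 CPM across genes of 0.963 and 0.984 to replicates 1 and 3, which had 0.988 between them. The only control cytoplasmic sample has no replicate, and it enters the ratio, the cytoplasmic change and the control nuclear/cytoplasmic comparison alike, so these 3 comparisons are not independent of each other. Levels are relative to all matched RNA of a fraction, and in such bulk samples fewer cells and less RNA per cell cannot be told apart.

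The translation factors as a group were rich in the cytoplasm. Summed over the 42 members, TMM-scaled levels were 22824 CPM in the control cytoplasm, 14028 to 14847 CPM in control nuclei, 32978 and 33093 CPM in RNAi cytoplasm and 15285 to 16291 CPM in RNAi nuclei. The elongation factors made up most of this. Their sum was 12245 CPM in the control cytoplasm and 21934 and 22397 CPM after RNAi, while the 13 eIF3 mRNAs together held 2808 CPM in the control cytoplasm and 3202 and 3326 CPM after RNAi.

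Per transcript length, the mRNAs spanned a wide range. In control nuclei EEF1G was the highest at 1476 ± 35.4 TPM (counts divided by transcript length and scaled to a fixed total; SD, n = 3), followed by EEF1A1 at 1295 ± 332 and EEF2 at 1191 ± 61.8 TPM. Of these neighbours EEF1A1 overlapped EEF1G within its spread, and EIF1, the start codon fidelity factor, was close behind at 1101 ± 128 TPM. The lowest members were EIF5B, the GTPase of subunit joining, at 3.09 ± 0.804 TPM and EIF3J, a loosely bound eIF3 subunit, at 2.78 ± 1.46 TPM, which did not differ beyond their spread. The 3 eIF4G scaffolds were far apart, with EIF4G1 at 557 ± 90.1, EIF4G2 at 242 ± 34.5 and EIF4G3 at 24.1 ± 6.76 TPM. In the cytoplasm of RNAi cells EEF2 was the highest, with a mean of 3266 TPM in 2 samples against 1783 TPM in the control cytoplasmic sample.

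The change of the nuclear/cytoplasmic ratio on RNAi is given first over all members and then by role, without a test of differences between roles. After RNAi, 9 members had a higher ratio (21.4%, against 10.4% of all genes tested) and 3 had a lower one (7.14%, against 7.87% of all genes tested). A gene was called at a Benjamini-Hochberg FDR under 0.1 and a log2 change beyond 0.5. The 9 were EIF5B, EIF1AX, EIF2S1 and EIF5 of the start codon group, EIF3A and EIF3E of eIF3, EIF4G3 and EIF4G2 of the scaffolds, and EIF4A3. The 3 with a lower ratio were all elongation factors, EEF1G, EEF2 and EEF1D. The median log2 change was -0.04 over the members and -0.05 over all genes tested. With library sizes alone in place of TMM scaling the median of all genes moved to 0.23, and 13 members were then called higher and 0 lower. Of all 16181 genes, 2236 were then called higher and 164 lower, against 1680 and 1273 with TMM scaling. A limma fit of log2(TPM + 1), in which that median was 0.21, called 8 members higher and 0 lower. It called 1044 of all genes higher and 30 lower, so few genes of any kind were lower in either fit. Without the 6 members whose canonical transcript was not among the matched ones, 8 were higher and 2 lower.

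**Figure D1:**
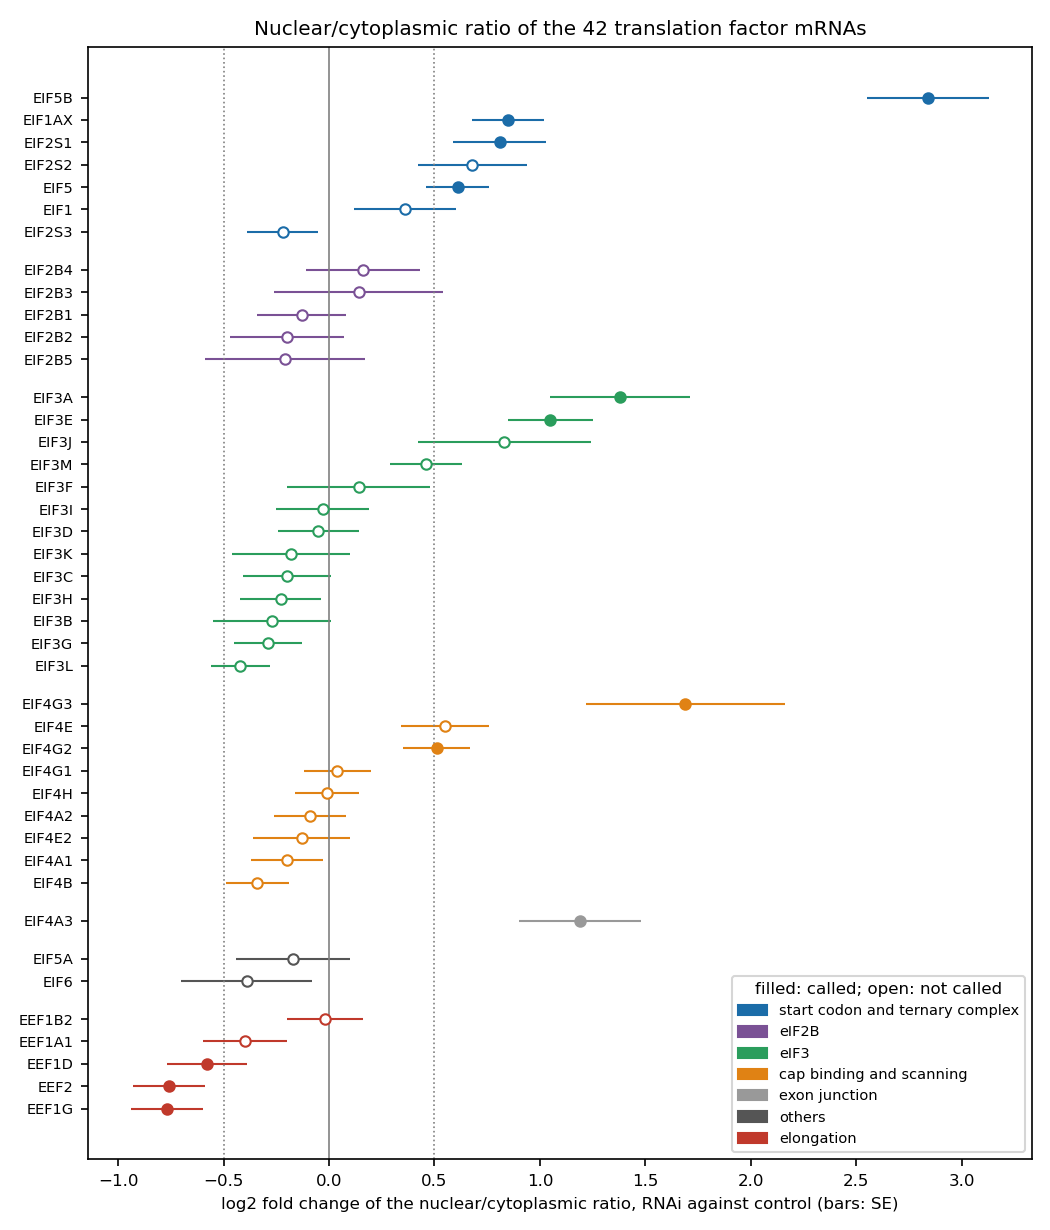
Change of the nuclear/cytoplasmic ratio on the log2 scale (horizontal axis, RNAi against control, edgeR) for each of the 42 members, grouped by role; bars are the standard error, filled points were called and dotted lines mark 0.5 in either direction. EIF5B lies farthest to the right at 2.84, and EEF1G, EEF2 and EEF1D lie to the left of the lower dotted line.

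Base composition moved with this result. Over the 42 members the ratio change correlated with the GC content of the canonical transcript with a Spearman rho of -0.59, and over 15954 genes with -0.55. These are correlations across genes of the same libraries, which are not independent replicates. When genes were sorted by GC content into 10 bins of equal size, the median ratio change was 0.95 in the lowest bin (median GC 37.1%) and -0.45 in the highest (64.5%). The 9 members with a higher ratio had GC contents from 35.1% to 49.4% and the 3 with a lower ratio from 54.5% to 64.6%. Their final exons did not overlap in length either, at 708 to 4063 nt and 103 to 692 nt. The 30 members that were not called overlapped both groups, with GC contents from 34.5% to 60.2% and final exons from 66 to 5908 nt. In the cytoplasmic change alone the rho was 0.61 over members and in the nuclear change 0.09. When the trend of each sample with GC content was entered as an offset, an alternative chosen after seeing the data, 3 members were called higher (EIF5B at 1.99, EIF4G3 at 1.65 and EIF4A3 at 1.31) and 4 lower (EIF2S3, EIF3H, EIF4E and EIF4A2). Of all genes, 438 and 295 were then called. The elongation factors EEF2, EEF1G and EEF1D kept negative values of -0.37, -0.48 and -0.17 but were no longer called, and EIF1AX and EIF2S1 turned to -0.42 and -0.07. What part base composition has in the ratio changes was not tested.

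**Figure D2:**
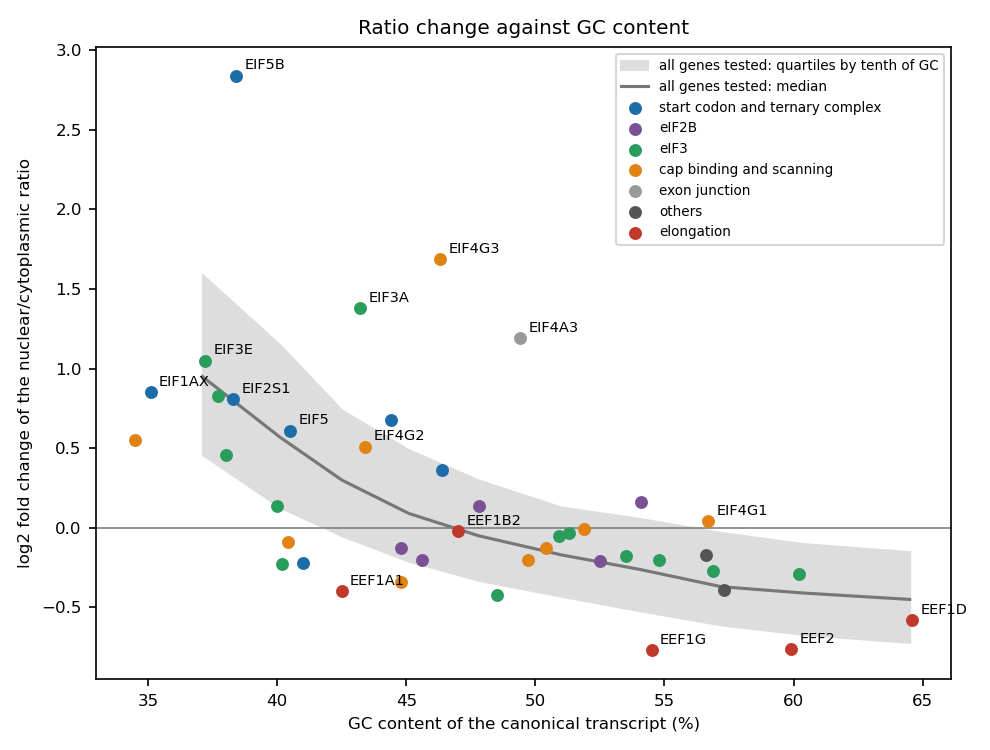
Change of the nuclear/cytoplasmic ratio on the log2 scale (vertical axis) against the GC content in percent of the canonical transcript (horizontal axis) for the 42 members, coloured by role, over the median and quartiles of all genes in 10 bins of GC content. The grey median falls from 0.95 to -0.45, EIF5B, EIF4G3, EIF3A and EIF4A3 lie above the grey band, and EEF1G, EEF2 and EEF1A1 lie below it. Other members lie outside the band too, among them EIF2B4 above it and EIF3H, EIF2S3, EIF4A2 and EIF4B below it.

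Of the 5 elongation factors, EEF2, EEF1G and EEF1D were called higher in the cytoplasm and 0 were called in the nucleus in edgeR. DESeq2 also called 3 and 0, and 1 had an unadjusted p under 0.05 in the nucleus. Of all genes tested, edgeR called 10.4% higher in the cytoplasm, and 2.47% higher and 2.42% lower in the nucleus. With so few genes called in the nucleus, a count of 0 of 5 there is not a result about the elongation factors. EEF2 translocates the ribosome by 1 codon after each peptide bond. Its level was 5498 CPM in the control cytoplasm, 12786 and 12123 CPM in RNAi cytoplasm, 3694, 3241 and 3367 CPM in control nuclei and 4452, 4663 and 4665 CPM in RNAi nuclei. Both RNAi cytoplasmic values lay above the control, and every RNAi nucleus lay above every control nucleus. The log2 change was 1.18 ± 0.15 in the cytoplasm (SE; FDR = 0.00131) and 0.42 ± 0.09 in the nucleus (FDR = 0.0439), below the size of 0.5 needed for a call. The ratio changed by -0.76 ± 0.17 (FDR = 0.0208).

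EEF1G, a structural subunit of the eEF1B exchange complex, was at 2222 CPM in the control cytoplasm and at 3576 and 3839 CPM after RNAi. Its nuclear levels were 2074, 1783 and 1930 CPM in the control and 1857, 1918 and 1907 CPM after RNAi, so that the nuclear groups overlapped. The cytoplasmic change was 0.74 ± 0.14 (FDR = 0.00611) and the ratio change -0.77 ± 0.17 (FDR = 0.018). Library size scaling, limma on TPM and the GC offset each ended the call of both EEF2 and EEF1G, with ratio changes of -0.47 and -0.47 under library sizes alone.

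EEF1D, another exchange subunit, was at 176 CPM in the control cytoplasm and at 250 and 263 CPM after RNAi, against 128, 166 and 137 CPM in control and 131, 147 and 142 CPM in RNAi nuclei. Its ratio changed by -0.58 ± 0.19 (FDR = 0.0782). This call was lost when any 1 of 7 samples was left out, with values from -0.62 to -0.47 and FDR up to 0.199, and was kept only without control nuclear replicate 1. Its canonical transcript was not among the matched ones.

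EEF1A1 carries aminoacyl-tRNA to the ribosome. Its level was 4060 CPM in the control cytoplasm, 5542 and 5442 CPM in RNAi cytoplasm, 1999, 2638 and 2122 CPM in control nuclei and 2241, 2304 and 2370 CPM in RNAi nuclei. The ratio change of -0.40 ± 0.20 did not pass the test (FDR = 0.228), and neither did the cytoplasmic change of 0.44 ± 0.17 (FDR = 0.1, short of the required size). EEF1B2, the nucleotide exchange subunit, had 289 CPM in the control cytoplasm, 243 and 266 CPM after RNAi, 137, 172 and 151 CPM in control nuclei and 136, 124 and 140 CPM in RNAi nuclei. Its ratio change was -0.02 ± 0.18 (FDR = 0.969) and its cytoplasmic change -0.18 ± 0.15 (FDR = 0.434). The subunits of the exchange complex thus did not share 1 value, and EEF1B2 had the smallest change of the 5 elongation factors. Over the 5, all ratio changes were below zero, with a median of -0.58, though EEF1B2 changed sign under other settings, to 0.26 with library sizes alone and to 0.32 in limma on TPM.

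**Figure D3:**
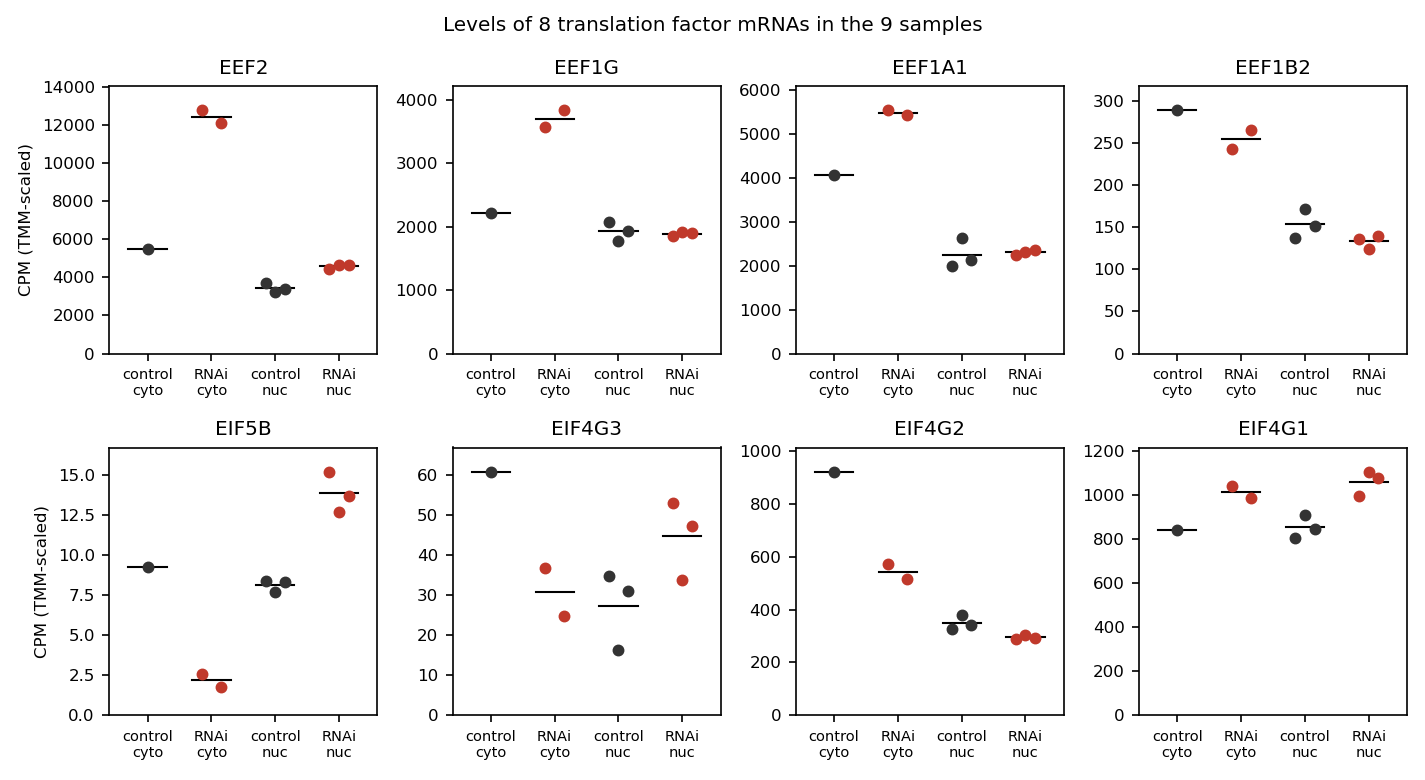
Level in CPM with TMM scaling (vertical axes from 0) of 4 elongation factor and 4 initiation factor mRNAs in each sample; points are samples, black control and red RNAi, and lines are group means. EEF2 reached 12786 and 12123 CPM in RNAi cytoplasm against 5498 CPM in the control, and EIF5B fell there to 2.57 and 1.75 CPM against 9.25 CPM.

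The eIF4G scaffolds, the long mRNAs against which these were compared, did not act as 1 group. EIF4G3 (chr1:21132785-21503778) was at 60.7 CPM in the control cytoplasm and at 36.8 and 24.8 CPM in RNAi cytoplasm. In nuclei it was at 34.6, 16.2 and 31.0 CPM in the control and 52.9, 33.8 and 47.3 CPM after RNAi, groups that overlapped by 1 sample each. The ratio rose by 1.69 ± 0.47 (FDR = 0.043). The nuclear change was 0.72 ± 0.27 (FDR = 0.161) and the cytoplasmic change -0.97 ± 0.38 (FDR = 0.102), so neither fraction alone passed. Without RNAi cytoplasmic replicate 2 the ratio change was 1.48 (FDR = 0.121), and without the low control nuclear replicate 2 the nuclear change was 0.45.

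EIF4G2, a relative of eIF4G that lacks the cap-binding part and serves other modes of initiation, was at 922 CPM in the control cytoplasm and at 572 and 516 CPM after RNAi. Its nuclear levels were 326, 379 and 341 CPM in the control and 287, 303 and 292 CPM after RNAi. Every RNAi value was below its control in both fractions, and the fall was larger in the cytoplasm, at -0.76 ± 0.13 (FDR = 0.00411), than in the nucleus, at -0.25 ± 0.09 (FDR = 0.151). The ratio change of 0.51 ± 0.16 (FDR = 0.0609) was just past the threshold. It was lost without control nuclear replicate 3, RNAi cytoplasmic replicate 2, or RNAi nuclear replicate 2 or 3, with values of 0.54, 0.48, 0.49 and 0.51 and FDR from 0.116 to 0.132.

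EIF4G1, the principal scaffold, was at 839 CPM in the control cytoplasm, 1039 and 986 CPM in RNAi cytoplasm, 803, 911 and 844 CPM in control nuclei and 995, 1105 and 1077 CPM in RNAi nuclei. It was higher after RNAi in both fractions by similar amounts, 0.27 ± 0.13 in the cytoplasm (FDR = 0.181) and 0.31 ± 0.09 in the nucleus (FDR = 0.0784, below the size needed for a call). The ratio change was 0.04 ± 0.16 (FDR = 0.894). Its canonical transcript, at 5405 nt and 56.7% GC, is between those of EIF4G2 (3794 nt, 43.4%) and EIF4G3 (6397 nt, 46.3%) in length and the richest of the 3 in GC.

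The median ratio change of the 5 elongation factors and 13 eIF3 subunits was -0.19, against 0.51 for the 3 eIF4G mRNAs, a difference of -0.70. The same difference was 0.91 in the cytoplasm (0.15 against -0.76) and -0.33 in the nucleus (-0.01 against 0.31). The standard deviation of the per-sample difference, pooled within the replicated groups, was 0.12. The control cytoplasmic sample has no replicate and adds nothing to this value. It is therefore not the error of the differences given here, which were not tested. With only 3 mRNAs on one side, the eIF4G median is the value of a single mRNA, EIF4G2 in the ratio and the cytoplasm and EIF4G1 in the nucleus. Length does not separate the sides. The canonical transcripts of EIF3F (6920 nt) and EIF3A (6659 nt) are longer than all 3 of eIF4G (at most 6397 nt). With the GC offset the differences in ratio and cytoplasm were -0.45 and 0.48.

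EIF5B (chr2:99953834-100017789) had the largest ratio change of the 42. It was at 9.25 CPM in the control cytoplasm and at 2.57 and 1.75 CPM after RNAi. Its nuclear levels were 8.38, 7.70 and 8.32 CPM in the control and 15.2, 12.7 and 13.7 CPM after RNAi, with no overlap of the groups in either fraction. It was the 1 member called in the nucleus, with a log2 change of 0.77 ± 0.15 (FDR = 0.0311), and it fell by 2.07 ± 0.25 in the cytoplasm (FDR = 0.00107). The ratio rose by 2.84 ± 0.29 (FDR = 0.00109) and was called under each of the 19 alternative settings, with values from 1.5 to 3.35. These levels rest on few reads, 33 and 16 estimated counts in the RNAi cytoplasmic samples against 152 in the control. The nuclear call was lost without control nuclear replicate 3 or any 1 RNAi nuclear sample (changes of 0.70 to 0.83, FDR from 0.102 to 0.139), with the transcript length offset, where the change was 0.37, and in limma on TPM, where it was 0.35.

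Of the start codon group, EIF1AX, EIF2S1 and EIF5 shared the fall in the cytoplasm but not the nuclear rise. EIF1AX, the factor that keeps the scanning ribosome open, was at 92.8 CPM in the control cytoplasm and at 39.8 and 42.7 CPM after RNAi, while its nuclei went from 33.5, 37.5 and 33.9 CPM to 28.9, 26.7 and 28.1 CPM. The cytoplasmic change was -1.17 ± 0.13 (FDR = 0.000944), the nuclear change -0.32 ± 0.10 (FDR = 0.0885, under the size of a call) and the ratio change 0.85 ± 0.17 (FDR = 0.012). EIF2S1, the eIF2 subunit phosphorylated under stress, was at 31.3 CPM in the control cytoplasm and at 15 and 15.2 CPM after RNAi, with nuclei at 13.4, 14.1 and 14.9 CPM and then 10.2, 13.5 and 12.1 CPM. Its ratio rose by 0.81 ± 0.22 (FDR = 0.0433), a call lost with the transcript length offset and in limma on TPM. EIF5, the activator of eIF2's GTPase, was at 137 CPM in the control cytoplasm and at 89.0 and 88.3 CPM after RNAi, and its nuclei stayed between 48.6 and 53.6 CPM in all 6 samples. Its ratio rose by 0.61 ± 0.15 (FDR = 0.0289).

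The third eIF2 subunit departed from this pattern. EIF2S3 was at 206 CPM in the control cytoplasm and at 229 and 206 CPM after RNAi, with nuclei at 141, 161 and 142 CPM and then 141, 127 and 136 CPM. Its ratio change of -0.22 ± 0.17 (FDR = 0.425) was the lowest of the group, and it turned to 0.05 with library sizes alone and to 0.11 in limma on TPM. EIF2S2 had a ratio change of 0.68 ± 0.26 (FDR = 0.124) and fell in the cytoplasm by 0.75 ± 0.21 (FDR = 0.0327), and EIF1 had a ratio change of 0.36 ± 0.24 (FDR = 0.361). EIF1 also departed from the pattern, with a cytoplasmic change of 0.01 ± 0.20 (FDR = 0.976). Its nuclear change of 0.37 ± 0.13 did not pass the test (FDR = 0.152). Of the 7 start codon factors 4 had a higher ratio (57.1%, against 10.4% of all genes) and 5 fell in the cytoplasm (71.4%, against 14.2%), with medians of 0.68 and -0.75. With the GC offset the ratio call was lost for all of these 4 except EIF5B.

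Within eIF3, the mRNAs of 2 of the 13 subunits had a higher ratio (15.4%, against 10.4% of all genes) and none a lower one (against 7.87%) in edgeR. DESeq2 gave the same counts, and 3 were above and 1 below zero at an unadjusted p under 0.05. Counts so near the shares of all genes are not a result about eIF3 as a group. EIF3A, the largest subunit and a core of the complex, was at 74.1 CPM in the control cytoplasm, 35.1 and 32.1 CPM in RNAi cytoplasm, 64.4, 34.8 and 58.4 CPM in control nuclei and 60, 67.2 and 59.4 CPM in RNAi nuclei. The nuclear groups overlapped, and the low control value was that of replicate 2. The ratio rose by 1.38 ± 0.33 (FDR = 0.0271) and the cytoplasmic level fell by 1.14 ± 0.27 (FDR = 0.0171).

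EIF3E, which anchors other subunits in the complex, was at 44.1 CPM in the control cytoplasm and at 20.1 and 21.5 CPM after RNAi. Its nuclear levels were 14.6, 13.8 and 16.5 CPM and then 15.2, 13.3 and 15.2 CPM. The ratio rose by 1.05 ± 0.20 (FDR = 0.0112), and with the GC offset it was 0.04. EIF3L stood at the other end of eIF3, with 311 CPM in the control cytoplasm, 484 and 519 CPM in RNAi cytoplasm, 223, 240 and 228 CPM in control nuclei and 269, 275 and 289 CPM in RNAi nuclei. It was higher after RNAi in every sample of both fractions, and its ratio change of -0.42 ± 0.14 (FDR = 0.088) passed the FDR but not the size. Of its matched counts 93.4% to 95.7% fell in transcripts not annotated as protein coding, its canonical transcript being absent from the matched ones.

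The other 10 eIF3 subunits had ratio changes between -0.29 for EIF3G and 0.83 for EIF3J. None was called, and the widest error was that of EIF3J, 0.41, a gene with 27 to 96 estimated counts. EIF3J and EIF3M, both low in GC (37.7% and 38.0%), fell in the cytoplasm, by 0.96 ± 0.33 (FDR = 0.0647) and 0.57 ± 0.14 (FDR = 0.018). The median of the 13 was -0.05 in the ratio and 0.06 in the cytoplasm. EIF3C shares nearly all its sequence with its copy EIF3CL, to which 1046 to 2504 counts per sample were given, so that its ratio change of -0.20 ± 0.21 depends on how reads were divided between them.

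No eIF2B mRNA was called in ratio. In edgeR and in DESeq2 0 of 5 were called, and 0 of 5 had an unadjusted p under 0.05. With 10.4% and 7.87% of all genes called higher and lower, a count of 0 of 5 is not a result about eIF2B. Their values ran from -0.21 ± 0.38 for EIF2B5 to 0.16 ± 0.27 for EIF2B4, and these errors leave room for changes of the size called elsewhere. EIF2B4 was at 45.3 CPM in the control cytoplasm, 33.6 and 39.7 CPM in RNAi cytoplasm, 39.2, 61.7 and 48.4 CPM in control nuclei and 42.4, 46.2 and 46.2 CPM in RNAi nuclei. EIF2B5, the catalytic subunit, was at 4.38 CPM in the control cytoplasm, 5.53 and 5.90 CPM in RNAi cytoplasm, 11.9, 19.7 and 19.2 CPM in control nuclei and 17.0, 19.5 and 20.6 CPM in RNAi nuclei. Between 89.3% and 98.9% of its matched counts lay in transcripts not annotated as protein coding. EIF2B2 was higher in the cytoplasm after RNAi, at 59.9 and 80.7 CPM against 44.7 CPM, a change of 0.65 ± 0.23 (FDR = 0.0673).

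Of the remaining cap-binding and scanning factors none was called in the ratio, where 10.4% of all genes were higher and 7.87% lower. With so few mRNAs this is not a result about these factors. EIF4E, the cap-binding protein, came closest on the higher side at 0.55 ± 0.21 (FDR = 0.12), and EIF4B, a helicase cofactor, was lowest at -0.34 ± 0.15 (FDR = 0.185). EIF4A1, EIF4A2, EIF4E2 and EIF4H lay between -0.20 and -0.01. EIF5A, which helps the ribosome through stalling sequences, and EIF6, which keeps subunits apart, had ratio changes of -0.17 ± 0.27 and -0.39 ± 0.31.

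EIF4A3, a helicase of the exon junction complex laid down at splicing, was at 15.3 CPM in the control cytoplasm, 7.01 and 7.43 CPM in RNAi cytoplasm, 6.11, 9 and 7.43 CPM in control nuclei and 8.21, 8.43 and 7.56 CPM in RNAi nuclei. Its ratio rose by 1.19 ± 0.29 (FDR = 0.0268). Its canonical transcript was not among the matched ones, and the matched counts were of different kinds in the fractions. In cytoplasm at most 1.49% lay in transcripts not annotated as protein coding, and in nuclei 47.1% to 100%. Counted on protein coding transcripts alone the change was 3.79 and was not called (FDR = 0.255), so the value describes the matched transcripts and not the canonical mRNA.

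The members just inside and just outside the threshold were close together. EIF4G2 at 0.51 (FDR = 0.0609) and EEF1D at -0.58 (FDR = 0.0782) were inside, and EIF3M at 0.46 (FDR = 0.107), EIF4E at 0.55 (FDR = 0.12) and EIF3L at -0.42 (FDR = 0.088) were outside.

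More members were called in the cytoplasm than in the nucleus. In the nucleus 1 of 42 members was higher (2.38%, against 2.47% of all genes) and none was lower (against 2.42% of all genes) in edgeR. DESeq2 called 2 higher, EIF5B and EIF4G3, and 0 lower, and at an unadjusted p under 0.05 there were 7 members above and 3 below zero. In the cytoplasm 5 members were higher (11.9%, against 10.4% of all genes) and 11 lower (26.2%, against 14.2% of all genes). These counts moved with the processing, to 7 higher and 2 lower with the GC offset, 1 and 13 with library sizes alone, and 1 and 11 in limma on TPM. Of all genes, 585, 431 and 99 were then called higher in the cytoplasm, against the 1678 behind the 10.4%. The median cytoplasmic change of all genes was 0.01, -0.24 and -0.16 in these fits. No share of all genes called lower is given for them, so their counts of lower members are not a result about the members. The 5 called higher with TMM scaling were EEF2, EEF1G, EIF3L, EIF2B2 and EEF1D. The 11 called lower with it were EIF5B, EIF1AX, EIF3A, EIF4A3, EIF3E, EIF2S1, EIF3J, EIF4G2, EIF2S2, EIF5 and EIF3M. The nuclear changes of the 42 spanned -0.32 to 0.77 and the cytoplasmic changes -2.07 to 1.18.

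**Figure D4:**
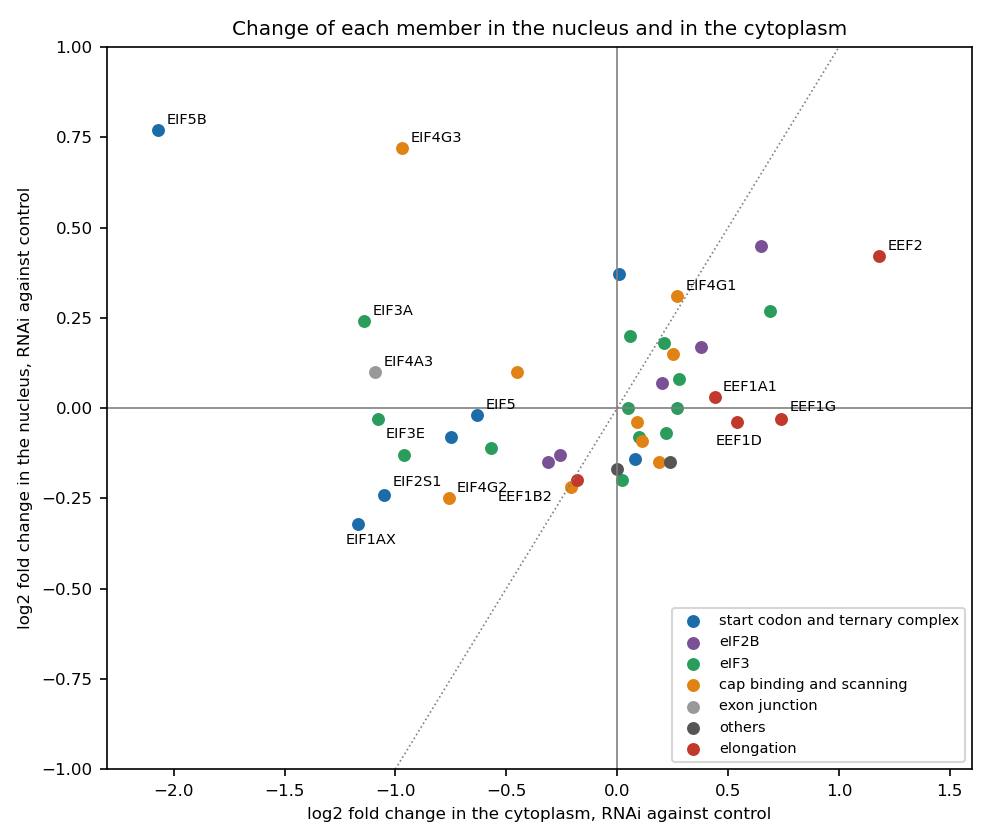
Log2 fold change on RNAi in the nucleus (vertical axis) against that in the cytoplasm (horizontal axis) for the 42 members, coloured by role; on the dotted diagonal the ratio is unchanged. EIF5B (-2.07, 0.77) and EIF4G3 (-0.97, 0.72) lie above and left of the diagonal, EEF2 (1.18, 0.42) lies below and right of it, and EIF4G1 (0.27, 0.31) lies near it.

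More members were lower than higher in the nucleus relative to the cytoplasm in either condition. In RNAi cells 3 members were higher in the nucleus than in the cytoplasm (against 32.9% of all genes) and 24 were lower (57.1%, against 24.9%). The 24 became 13 with library sizes alone and 10 in limma on TPM. No share of all genes is given for these other fits, so the smaller counts are not a result about the members. In the control 1 was higher (against 28.0% of all genes) and 21 lower (50.0%, against 22.7%). The medians were -0.55 and -0.51 on the log2 scale, against 0.04 over all genes in both. EIF2B5 was higher in the nucleus in both conditions, by 1.74 ± 0.24 and 1.94 ± 0.31, and EIF5B and EIF3A were so in RNAi cells, by 2.65 ± 0.21 and 0.88 ± 0.22. All 5 elongation factors were lower in the nucleus in RNAi cells, from -1.44 ± 0.10 for EEF2 to -0.87 ± 0.12 for EEF1D. In the control the values were -0.68 ± 0.13 and -0.29 ± 0.15 for the same mRNAs, and EIF1 was the most cytoplasmic member at -1.70 ± 0.18. EIF4G1 was nearly even, at 0.07 ± 0.10 after RNAi and 0.02 ± 0.12 in the control, while EIF4G2 was cytoplasmic at -0.89 ± 0.10 and -1.40 ± 0.12.

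The mixture of transcripts differed between fractions. For the 36 members with their canonical transcript among the matched ones, transcripts not annotated as protein coding (retained introns, nonsense-mediated decay and undefined coding) held 3.31% of counts in the control cytoplasm and 2.18% and 2.16% in RNAi cytoplasm. In control nuclei the share was 4.43%, 5.57% and 5.05%, and in RNAi nuclei 5.09%, 4.76% and 4.81%. In 18 of the 36 every nuclear sample had a higher share than every cytoplasmic sample, and in 1, EEF1G, the order was the opposite. Among 12182 tested protein coding genes with their canonical transcript matched, not chosen to be alike in depth, the first order was found in 24.9% and the opposite one in 1.83%, against 50.0% and 2.78% of these members. EIF4A2, the second eIF4A helicase, had 26.1% to 33.7% in cytoplasm and 59.1% to 75.7% in nuclei. For EIF5B it was 2.69% in the control cytoplasm, 3.67% and 18.4% in RNAi cytoplasm, 31.8% to 48.8% in control nuclei and 19.4% to 26.3% in RNAi nuclei. The share of EIF5B in the nucleus was thus lower after RNAi while its level was higher, and on coding transcripts alone its nuclear change was 1.12 ± 0.20 (FDR = 0.0326). EEF2 stayed at or under 0.165% in all samples.

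**Figure D5:**
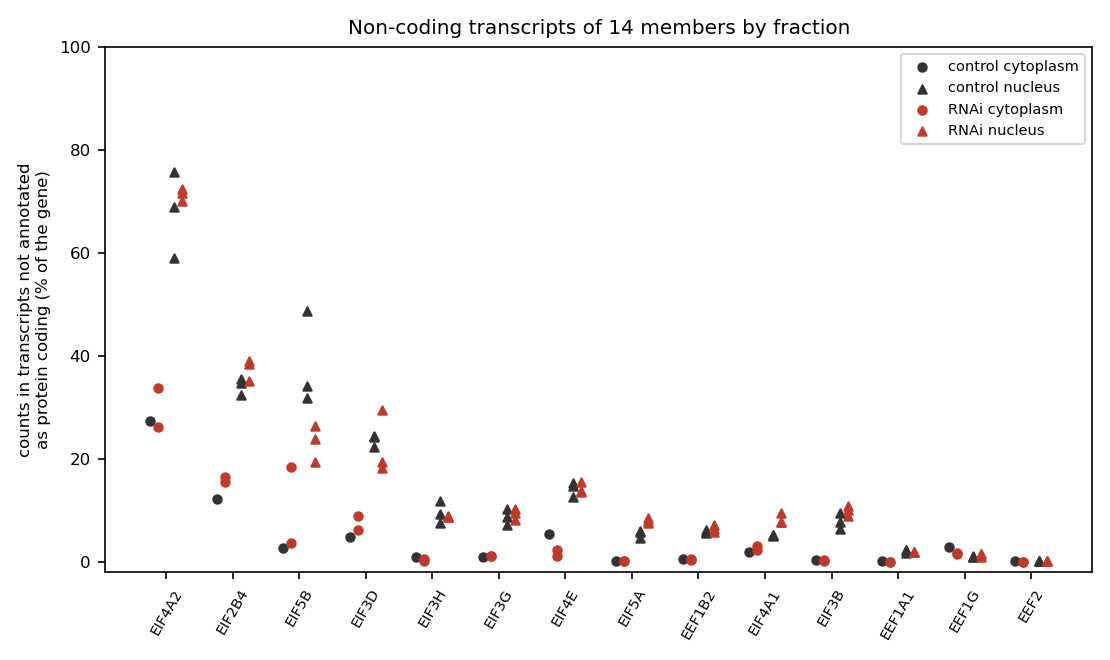
Share of a member's estimated counts in transcripts not annotated as protein coding (vertical axis, percent) in every sample for 14 members; circles are cytoplasmic and triangles nuclear samples, black control and red RNAi. EIF4A2 reached 75.7% in a control nucleus and at most 33.7% in cytoplasm, whereas EEF2 stayed near 0.

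Counts of EIF4G3 and EIF4G1 lay mostly on transcripts other than the canonical one. For EIF4G3, 75.5% of counts were assigned to a coding transcript of 1270 nt and 5.99% to one of 6175 nt. For EIF4G1, 39.1% lay on a transcript of 2658 nt and 18.9% on the canonical one. EIF4G2 held 64.9% on its canonical transcript, EIF3A 99.9%, EIF5B 75.7% and EEF2 99.9%. EEF1A1 had 95.9% on a transcript of 1923 nt other than the canonical one. Salmon divides reads between transcripts that share exons, and the ratio changes given here sum over all of them.

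Transcript length, the length of the final exon and the letters of the common m6A core were set beside the ratio in the same way as GC content, and no test compared them with it. The ratio change had a Spearman rho of 0.34 with transcript length over the 42 members and 0.18 over all genes, and of 0.40 and 0.18 with the length of the final exon. The final exons had a median of 2020 nt in the 9 members with a higher ratio, 242 nt in the 3 with a lower one and 719 nt in the 30 not called. With the number of GGACT per kb, read on the transcript strand, it was -0.02 over members and -0.19 over all genes. GGACT occurred 12 times in EIF4G3 and 10 times in EIF4G1, of which the first changed in ratio and the second did not pass the test. It occurred 4 times in EIF5B, 0 times in EIF3E and 1 to 3 times in the elongation factors. The letters do not show whether a site was methylated, which was not measured in these samples.

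The members that start with C and pyrimidines, shown above, had ratio changes from -0.76 for EEF2 to 0.46 for EIF3M, with a median of -0.14, and 1 of 10 was called, EEF2. The median of all tested genes with such a start was -0.11. For the other 25 members in the start table the median was 0.04, and 7 were called higher and 1 lower, where 10.4% and 7.87% of all genes were. The ratio change was -0.77 for EEF1G, which has no such start in the table. It was -0.02 for EEF1B2, which has the longest run of those shown and did not pass the test in either fraction. These are single mRNAs, and whether the start has a part in the ratio changes was not tested.

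Other genes of translation were examined as a fixed list of 47 (eIF2 kinases, 4E-binding proteins, release and recycling factors, poly(A)-binding proteins, helicases and regulators). Of the 46 tested, 8 had a higher ratio (17.4%, against 10.4% of all genes) and 3 a lower one (6.52%, against 7.87%), with a median of 0.15. The 8 were DHX36, DHX29, RPS6KB1, LARP4, ABCE1, EEF1E1, EIF2AK2 and DDX3X, from 1.84 ± 0.25 for DHX36, a helicase of G-quadruplexes, to 0.58 ± 0.15 for DDX3X. ABCE1, which recycles ribosomes, had a ratio change of 1.48 ± 0.20 and was at 96.0 CPM in the control cytoplasm against 31.2 and 24.6 CPM after RNAi. Its nuclei were at 27.9, 30.1 and 30.3 CPM in the control and 24.3, 25.5 and 22.2 CPM after RNAi. Every RNAi nucleus was below every control nucleus, a change of -0.29 ± 0.11 that did not pass the test (FDR = 0.179). The 3 with a lower ratio were EEF1A2, the tissue-restricted form of eEF1A, at -1.07 ± 0.16, EIF4EBP1, which restrains eIF4E, at -0.99 ± 0.17, and EEFSEC, the selenocysteine elongation factor, at -0.61 ± 0.17. In the nucleus 1 of the 46 was higher (2.17%, against 2.47% of all genes) and 4 lower (8.7%, against 2.42%). In the cytoplasm 5 were higher (10.9%, close to the 10.4% of all genes) and 14 lower (30.4%, against 14.2%).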

How the data were processed

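RNA of nuclear and cytoplasmic fractions was sequenced after SENSE mRNA library preparation on an Illumina HiSeq. The authors trimmed reads with cutadapt, merged lanes and ran salmon against Ensembl transcripts of hg19; the salmon version is not given in the sources used here. They deposited per transcript estimated counts, not normalized between samples. The deposited TPM values are divided by effective length and scaled to the same total in every sample. Lengths and effective lengths, in nucleotides, were deposited beside them.

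Here, 183122 of 215170 transcripts (85.1%) were matched without version to GENCODE 44 genes lifted to GRCh37. The others, whose identifiers are not in that annotation, were not used. For 6 members (EIF3I, EIF2B5, EEF1D, EIF3F, EIF4A3 and EIF3L) the unmatched ones include the canonical transcript. The counts of a gene's transcripts were added and rounded to whole numbers. Genes with at least 10 counts in at least 3 samples were fitted with edgeR 4.0.16 (R 4.3.3; TMM, 4 groups, no block, quasi-likelihood test, 5 residual degrees of freedom), with the contrast and thresholds of the study's methods. The spread of the single control cytoplasmic sample is taken from the other groups. CPM values carry TMM scaling. Standard errors were derived from the log2 change and its quasi-likelihood F statistic. Alternatives used DESeq2 1.42.0 and limma 3.58.1 with a pseudocount of 1. Role groups, canonical transcripts (GENCODE 44), GC content and transcript types were as annotated. Counting error alone is covered by the depths given.

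Values in every sample are given for the elongation factors, the eIF4G mRNAs, members called in the ratio or the nucleus, and the highest and lowest of eIF3, eIF2B and the start codon group. Other genes named are members by range, or list genes called in the ratio. The members and lists were chosen with earlier results of these data known.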

Additional observations from a re-analysis of the deposited data

Results flagged for a closer look

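For 12 members the effect of RNAi in the nucleus was unlike that in the cytoplasm, by the test of the difference itself. The difference of the log2 changes, nucleus less cytoplasm, was negative for EEF1G (-0.77), EEF2 (-0.76) and EEF1D (-0.58). It was positive for EIF4G2 (0.51), EIF5 (0.61), EIF2S1 (0.81), EIF1AX (0.85), EIF3E (1.05), EIF4A3 (1.19), EIF3A (1.38), EIF4G3 (1.69) and EIF5B (2.84). A positive difference was thus called for 21.4% of the members, against 10.4% of all genes tested. A negative one was called for 7.14%, against 7.87% of all genes. All 12 rest on the same single control cytoplasmic sample. No group had enough samples for a test of single outlying values.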

How the results depend on the processing

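The ratio of the named members was refitted under up to 19 alternatives each. Of 360 such values 310 kept direction and call, 32 lost the call with the same sign, 1 gained it and 17 changed sign. Among the 17 are EIF1AX and EIF2S1 under the GC offset, whose call was lost as well. For named members that were not called, such as EEF1A1, EIF2B4 and EIF3L, keeping the call means staying uncalled. EIF5B was called in all of them.

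Under the GC offset (added after seeing the data) 3 members were higher in ratio, where 438 of all genes were. It gave 2 members lower in the cytoplasm and 2 higher in the control nucleus. The elongation and eIF3 median less that of eIF4G was -0.45 in ratio, 0.48 in cytoplasm and -0.88 between fractions after RNAi. EIF1AX turned to -0.42, EIF2S1 to -0.07 and EIF2B5 to 0.02. With library size only, 0 members were lower in ratio, where 164 of all genes were, and 1 was higher in the cytoplasm, where 431 were. Compared with the RNAi cytoplasm, 6 members were higher and 13 lower in RNAi nuclei. EEF1B2 turned to 0.26, EIF2B5 to 0.06 and EIF2S3 to 0.05. In limma on TPM, whose median ratio change over all genes was 0.21, these counts were 0, 1, 5 and 10, no member was higher in the nucleus on RNAi or in the control nucleus, the medians differed by -0.98 in ratio and 1.05 in cytoplasm, and EEF1B2, EIF2B5 and EIF2S3 turned to 0.32, 0.36 and 0.11. With the length offset 0 were higher in the nucleus, where 227 of all genes were, and 3 in the cytoplasm, where 1153 were. In the control nucleus 0 were higher, the medians differed by -1 and 1.05, and EIF2B5 turned to 0.02. On coding transcripts 3 were higher in the cytoplasm, where 1192 of all genes were, and 0 in the control nucleus. The medians there differed by -0.83 between fractions after RNAi, and EEF1B2 turned to 0.07. DESeq2 and the fit without a filter each gave 2 higher in the nucleus, where 325 and 633 of all genes were. With 10 counts in every sample, 5 members were higher in RNAi nuclei and 2 in control nuclei, and EEF1B2 turned to 0.09. Restricted to members with a canonical transcript, 3 were higher in the cytoplasm and 0 in the control nucleus. With TPM weights the non-coding share was 8.65% in control cytoplasm, 6.23% in RNAi cytoplasm, 12.6% in control and 12.7% in RNAi nuclei. The cause of these differences was not tested. Counts of members given without a count of all genes from the same fit are not a result about the members.

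Leaving out 1 sample gave 7 to 11 members with a higher and 2 to 3 with a lower ratio, 0 to 3 higher in the nucleus (3 without control nuclear replicate 1, 2 without replicate 2) and 3 to 5 higher in the cytoplasm (3 without control nuclear replicate 3 or RNAi cytoplasmic replicate 2). Without 1 of the nuclear samples, 1218 to 2023 of all genes were higher and 574 to 1585 lower in ratio. In the nucleus 32 to 609 of all genes were then higher. With 1 sample of any replicated group left out, the medians differed by -0.74 to -0.53 in ratio, 0.79 to 1.1 in cytoplasm, -0.84 to -0.57 between fractions after RNAi and 0.35 to 0.76 in the control, the 0.35 without control nuclear replicate 2. EEF1B2 ran from -0.08 to 0.09.

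Deviations from the group means correlated at 0.357, 0.209 and -0.016 between control and RNAi nuclei of the same replicate number. Only the first 2 of the 3 control nuclei correlated best with their own number. Between RNAi nuclei and RNAi cytoplasm the correlation was 0.314 for the same number and -0.314 for the other. With replicates 1 and 2 alone, these are 1 value with opposite signs. The single control cytoplasmic sample allows no such comparison. The numbers were not taken as pairs, and a replicate block was fitted as an alternative. With a replicate block 10 members were higher and 4 lower in ratio, where 2121 and 1917 of all genes were. In the nucleus 2 members and 549 of all genes were higher. Under the block the medians differed by 0.79 between fractions in the control, and EIF4G1 was at -0.00.

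Depth limited EIF5B and EIF3J most, with 16 to 218 and 27 to 96 counts per sample. The control cytoplasmic sample could not be left out.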

Other observations

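Copies of members with their own row in the files gave values of their own. EIF3CL, a near-identical copy of EIF3C, had a ratio change of -2.14 ± 0.33 (FDR = 0.00511), against -0.20 ± 0.21 for EIF3C. EIF1B, a paralog of EIF1, had 0.33 ± 0.21 (FDR = 0.337), and EIF3FP3, annotated as a pseudogene of EIF3F, had -1.03 ± 0.38 (FDR = 0.11). EIF5AL1 held 4 to 22 counts per sample and was not tested. Reads shared between such copies cannot be told apart in these files.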
